A study of Mus musculus with 12 samples.

Results

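Basal epithelial cells of the mouse mammary gland were compared between mice labelled as Foxp1 knockouts and floxed controls, gene by gene over every transcript that was counted often enough in basal cells. Of the 27179 genes in the count table, 13971 passed an expression filter set on the 6 basal libraries and were tested. These held between 99.639% and 99.865% of the counts of each basal library. The study has 12 libraries in all, 3 of basal and 3 of luminal cells from each genotype, and all mice were female. Control mice were Foxp1(fl/fl), so both of their Foxp1 alleles carried loxP sites and no Cre is named for them. Knockout mice were MMTV-cre/Foxp1(fl/fl): the same floxed alleles with Cre recombinase under the promoter of the mouse mammary tumour virus, which is active in mammary epithelium and also in other secretory epithelia such as salivary gland. The labels used here do not give the age of the mice, the number of mice behind a library or the share of cells in which Cre acted. The design text describes the 3 libraries of each group as biological replicates.

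The mammary duct has an inner luminal layer, which makes milk, and an outer basal layer of contractile myoepithelial cells, in which cells able to regenerate the gland are also found. Foxp1 belongs to the forkhead family of transcription factors. The FOXP proteins bind DNA as dimers through their forkhead domain and act largely as repressors of transcription, so that target genes can become more active when such a factor is lost. The comparison asks which transcripts of basal cells differ between mice labelled as knockouts and floxed controls. As Cre is named for the knockout mice alone, an effect of Cre or its transgene cannot be told apart from loss of Foxp1.

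The basal libraries held 10135874 to 11133908 counts. All 20 markers of basal and myoepithelial cells were detected and tested, with a summed level of 24020 to 26350 CPM (counts scaled to library size) in controls and 23970 to 31730 CPM in knockout-labelled libraries, against 1961 to 2832 and 2460 to 3969 CPM for 14 pan-luminal markers. Control replicate 3 stood apart from the other controls. It lay at 48.0 on the first principal component (39.4% of the variance), beside -39.9 and -58.6, and at 55.2 on the second (30.4%), beside 16.6 and 17.4. The knockout-labelled libraries lay between the controls on the first component, at 25.9, -4.3 and 28.9. On the second they lay below all controls, at -30.8, -45.7 and -12.7. In control replicate 3, Acta2, the actin of smooth muscle, was at 1273 CPM, beside 4759 and 5122 CPM in the other controls. The proliferation marker Mki67 was at 170.8 CPM there, beside 54.6 and 43.5 CPM. The 20 immediate early and heat shock genes summed to 10390 CPM in that library and to 23740 CPM or more in the other 5. Several results that change without that library, though not all, are given with both values.

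Foxp1 itself (Entrez 108655, GRCm38 chromosome 6, 98925342 to 99522746) was at 217, 210 and 164 CPM in the controls, and at 213, 192 and 279 CPM in the libraries labelled knockout. The groups overlapped, and the log2 fold change was 0.21 (SE 0.19, edgeR adjusted p = 0.937). In luminal cells its count rose in the knockout-labelled libraries (1.09, SE 0.19, adjusted p = 0.0164). The count is for the whole gene and can include exons outside the deleted stretch, so it does not show whether the deletion took place. The libraries are therefore called knockout-labelled, and each direction below rests on the labels. Its relatives Foxp4 and Foxp2 had log2 fold changes of 0.32 (adjusted p = 0.588) and 2.75 (adjusted p = 0.122). Foxp2 was rare, with 9 counts over the controls and 61 over the knockout-labelled libraries.

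A gene is called when its Benjamini-Hochberg adjusted p in edgeR's quasi-likelihood test is under 0.05. There were 120 called genes, 0.859% of those tested: 103 were higher in the knockout-labelled libraries (0.737%) and 17 lower (0.122%). Over all tested genes the median log2 fold change was -0.02 and 47.1% were positive. The scaling centres this distribution, so it does not show whether transcripts as a whole shifted. The groups of 12.3% of all tested genes did not overlap, 7.82% higher and 4.47% lower, and none of the 120 called genes overlapped. The rises were large, with a median of 2.54 on the log2 scale and 75 of 103 at 4-fold or more. They were mostly in transcripts that were scarce in controls. Per length, the median control level of the genes called higher was 0.845 RPKM (CPM divided by the deposited gene length in kilobases), and 57 of the 103 lay under 1 RPKM. Among all tested genes the median was 8.20 RPKM and 11.3% lay under 1 RPKM. The 17 genes called lower had a median control level of 5.21 RPKM, which was 1.41 RPKM in the knockout-labelled libraries. As these are bulk libraries, fewer cells of a type and less RNA per cell cannot be told apart in any of the results.

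**Figure D1:**
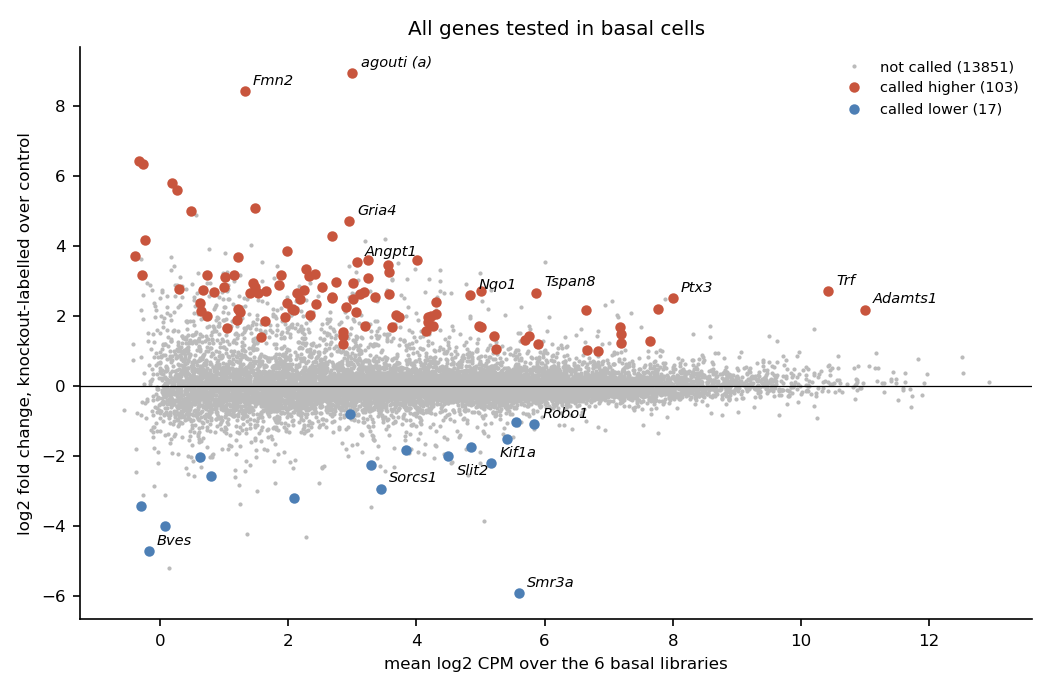
Log2 fold change of knockout-labelled over control basal libraries (vertical) against the mean log2 CPM over the 6 basal libraries (horizontal) for the 13971 tested genes, 1 point a gene. The 103 genes called higher (red) lie mostly at low to middle levels, with agouti and Fmn2 far above the rest, and the 17 called lower (blue) include Smr3a, Slit2 and Kif1a; fitted folds of genes with 3 or fewer counts in a group, such as Fmn2 and Bves, depend on the prior count.

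How firmly a single gene can be read depends on its libraries. Of the 120 genes, 16 were called in all 6 fits that left out 1 basal library, among them agouti, Fmn2, Nqo1, Slit2, Angpt1, Sstr1, Tmem229a, Enpp6, Pamr1, Piezo2, C2, Ank, Timd2, Abca8b and Crip1. Another 9 lost their call only without control replicate 1, among them Tspan8, Sfrp1, Ntn1, Trf, Gria4, Cntnap4 and Foxa1. At the other end, 44 of the 120 were called in 1 of the 6 fits and 23 in none. Where the adjusted p of a called gene is given without 1 library, it is the highest over the 6 fits, and leaving out other libraries can also end the call. The count fell to 17 without control replicate 1, to 31 without control 2, and to 45, 33 and 59 without knockout-labelled replicates 1, 2 and 3. Without control replicate 3 it was 152, of which 81 were among the 120. No called gene turned its direction in any of these fits.

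**Figure D2:**
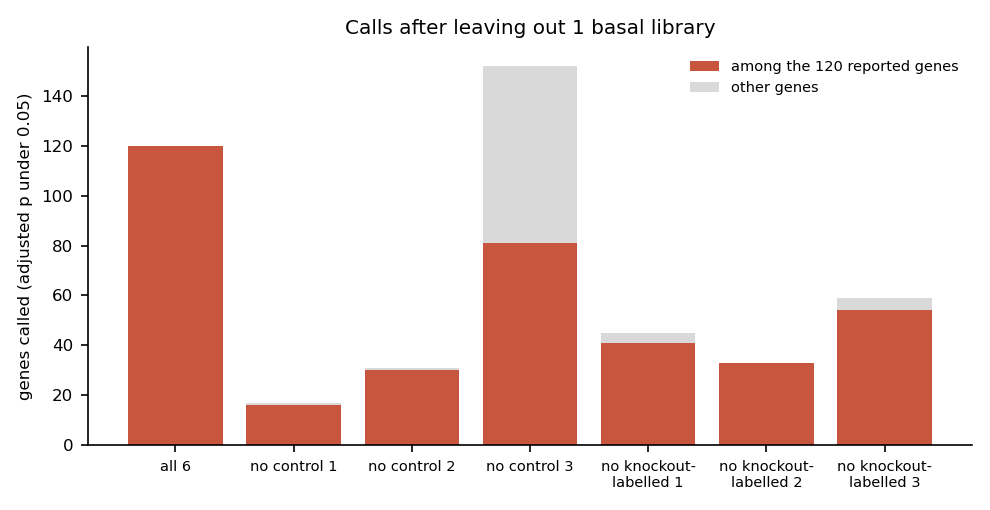
Number of genes called (vertical, adjusted p under 0.05) with all 6 basal libraries and after leaving out each in turn. The red part counts genes among the 120 and the grey part other genes; the count is lowest at 17 without control 1 and highest at 152 without control 3, where 81 of the calls are among the 120.

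Agouti and Fmn2 had the largest rises. Agouti (symbol a, Entrez 50518, chromosome 2, 154950599 to 155051012) encodes a secreted ligand that blocks melanocortin receptors and is known for switching pigment in hair follicles. It was at 0.306, 0.442 and 0.0947 CPM in the controls, and at 166, 128 and 142 CPM in knockout-labelled libraries. It was nearly undetected in every control and abundant in every knockout-labelled library (log2 fold change 8.95, SE 0.49, adjusted p = 1.14e-05). The other 3 tested genes of its pathway were Mgrn1 (0.20), Atrnl1 (0.13) and Atrn (-0.09), none called, and the receptor gene Mc3r and the accessory protein gene Mrap had 0 counts in all 6 basal libraries.

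Fmn2 (Entrez 54418, chromosome 1, 174501752 to 174822729) encodes a formin, a protein that nucleates unbranched actin filaments. It was at 0, 0.0883 and 0.0947 CPM in the controls, and at 29.6, 21.5 and 25.9 CPM in knockout-labelled libraries. The controls held 2 counts in all and the knockout-labelled libraries 775, a ratio of 404 with an exact 95% interval of 111 to 3340 that covers counting error only (adjusted p = 3.23e-05). Fmn2 was the 1 of 13 formins called, and the 13 had a median log2 fold change of -0.10 (0.05 without control replicate 3). Both genes were also called higher in luminal cells, agouti from a mean of 0.182 to 49.5 CPM and Fmn2 from 0.0341 to 2.35 CPM.

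**Figure D3:**
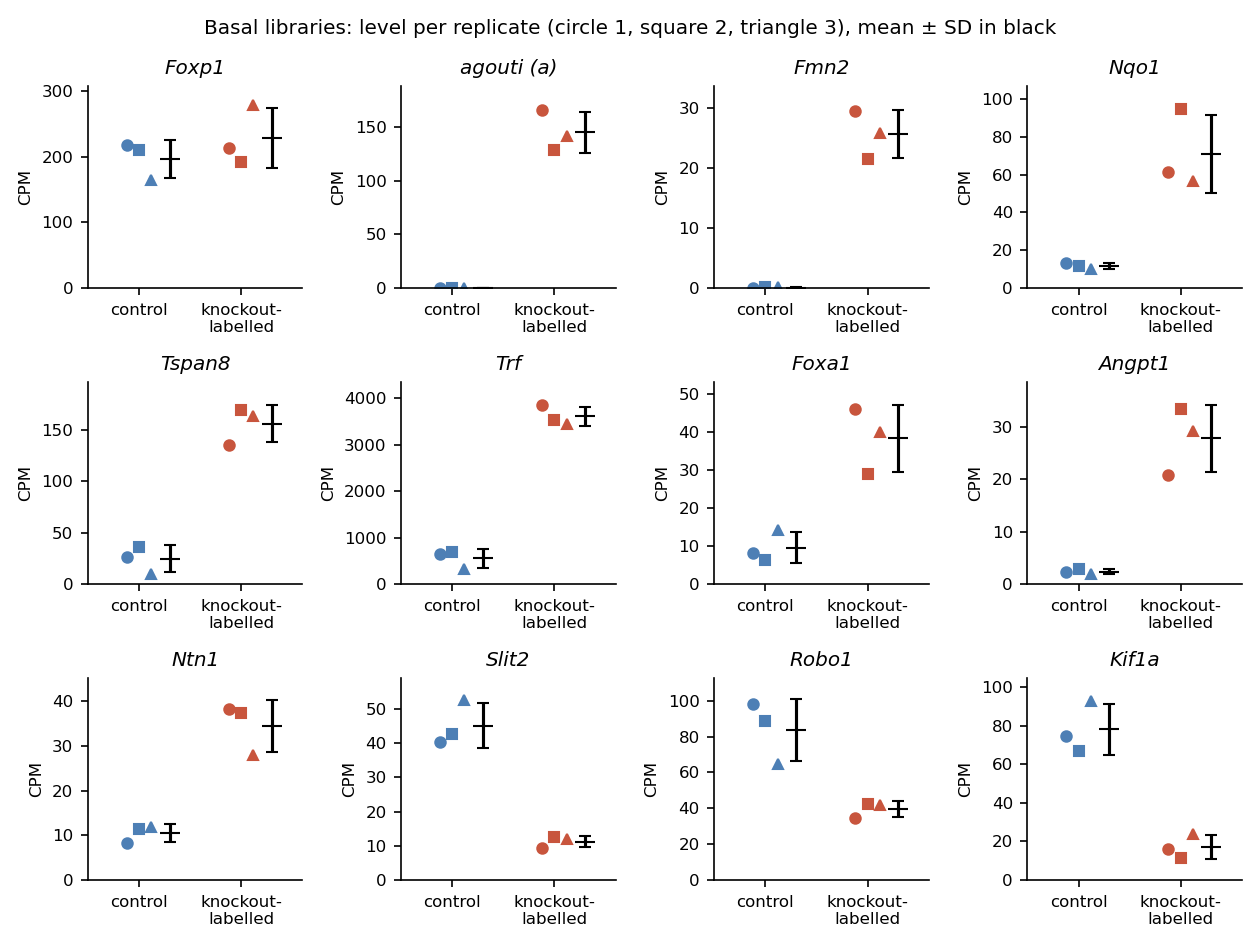
Level in CPM (vertical, linear, from 0) of Foxp1 and 11 called genes in the 3 control (blue) and 3 knockout-labelled (red) basal libraries; circle, square and triangle are replicates 1, 2 and 3, and black marks give the mean ± SD (n = 3). Foxp1 overlaps between the groups, while each of the other genes has all 3 red points on 1 side of the blue ones.

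Among tetraspanins, membrane proteins that organise surface microdomains, 3 of 25 rose and none fell. Tspan8 (Entrez 216350, chromosome 10, 115816817 to 115849893), which has been used to mark quiescent stem-like cells of the basal layer, was at 26.8, 36.2 and 10.2 CPM in the controls, and at 135, 169 and 164 CPM in knockout-labelled libraries. Every knockout-labelled library lay well above every control (2.67, SE 0.36, adjusted p = 0.00738; 0.0593 without control replicate 1). On the log2 scale, Tspan17 rose by 1.21 and Tspan1, also a luminal progenitor marker, by 3.16. Of 13 tested progenitor markers Tspan1 alone was called, 6 of the 13 were positive, and their median was -0.17, or 0.17 without control replicate 3. Tspan1 stood at 30.6 CPM in knockout-labelled replicate 1 and at 11.04 and 7.05 CPM in the others. For both tetraspanins the highest adjusted p came without control replicate 2, at 0.163 for Tspan17 and 0.173 for Tspan1. The median log2 fold change of the 25 was -0.001, and without control replicate 3 the calls were 2 higher and 1 lower. Of 13 tested mammary stem cell genes, Tspan8 alone was called. Lgr5, a Wnt-coupled receptor on that list, had a log2 fold change of -0.04 (SE 0.40, adjusted p = 0.995).

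Windows from 250 bases before to 50 bases after a start site were read from RefSeq (GRCm38.p6). Those of 3 called genes are printed as examples, the stem cell marker Tspan8, the forkhead gene Foxa1 and the guidance ligand Slit2. Capitals mark forkhead-type letters, which were searched as TGTTTAC and as its variant TGTTTAT, as TATTTAC and as its variant TATTTAT, on either strand. Matches may overlap, as they do in Slit2.
Tspan8, chr10:115817034-115817333, plus strand: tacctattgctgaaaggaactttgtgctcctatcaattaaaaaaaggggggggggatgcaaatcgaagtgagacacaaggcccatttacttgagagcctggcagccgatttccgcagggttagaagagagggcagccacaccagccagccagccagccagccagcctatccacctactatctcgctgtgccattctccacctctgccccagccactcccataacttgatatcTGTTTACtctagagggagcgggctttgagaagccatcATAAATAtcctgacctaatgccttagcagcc
Foxa1, chr12:57546062-57546361, minus strand: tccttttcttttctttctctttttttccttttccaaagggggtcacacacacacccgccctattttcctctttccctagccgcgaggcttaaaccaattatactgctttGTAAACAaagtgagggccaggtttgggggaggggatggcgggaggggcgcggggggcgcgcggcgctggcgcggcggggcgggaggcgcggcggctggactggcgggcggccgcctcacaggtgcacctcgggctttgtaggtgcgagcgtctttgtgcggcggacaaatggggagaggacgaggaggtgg
Slit2, chr5:47982905-47983204, plus strand: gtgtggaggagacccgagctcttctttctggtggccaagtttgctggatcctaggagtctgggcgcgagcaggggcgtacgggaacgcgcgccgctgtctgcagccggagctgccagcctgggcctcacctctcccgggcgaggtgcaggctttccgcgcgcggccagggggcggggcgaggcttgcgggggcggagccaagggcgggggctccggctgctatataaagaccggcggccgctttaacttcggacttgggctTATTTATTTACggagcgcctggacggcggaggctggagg
Tspan8 has TGTTTAC at 18 bases before the start site and a second match at 19 bases after it. Foxa1 has GTAAACA, the reverse complement of TGTTTAC, at 141 bases before the start site of its window. In each of the 3 genes that start site lies inside the RefSeq span of the gene and not at its outer end. The windows of agouti and Fmn2 hold none of these letters. Most windows of called genes hold none, so the 3 printed windows are not typical of them. Windows were available for 66 of the 103 genes called higher and for 10 of the 17 called lower. At least 1 match was present in 15 of 79 windows of genes called higher (18.99%), in 3 of 12 windows of genes called lower (25%), in 8.75% of the 13692 windows of all tested genes and in 15.03% of all 32851 windows. For TGTTTAC alone the shares were 3.80%, 8.33%, 2.48% and 3.65%. These are matches of letters, a gene can have several windows, and none was measured as a site where Foxp1 binds.

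Of 16 tested genes of the Slit, Robo and netrin system, 1 rose and 2 fell. The system was described first in axons, and in the mammary gland Slit ligands and Robo receptors restrain the growth and branching of basal cells while netrin-1 takes part in adhesion between the epithelial layers. Slit2 (Entrez 20563, chromosome 5, 47981291 to 48307735), a secreted ligand, was at 40.4, 42.6 and 52.6 CPM in the controls, and at 9.35, 12.5 and 11.97 CPM in knockout-labelled libraries. All knockout-labelled libraries were below all controls (-2.00, SE 0.20, adjusted p = 0.00118), and the call held on leaving out any basal library, with an adjusted p of at most 0.0118. Its receptor Robo1 was at 98.1, 88.4 and 64.5 CPM in the controls, and at 34.8, 42.4 and 41.9 CPM in knockout-labelled libraries (-1.08, SE 0.22, adjusted p = 0.0489). That fall lies at the threshold, and without control replicate 2 its adjusted p was 0.213. Ntn1, netrin-1, was at 8.25, 11.4 and 11.9 CPM in the controls, and at 38.2, 37.5 and 27.9 CPM in knockout-labelled libraries. It rose in every library over every control (1.71, SE 0.24, adjusted p = 0.00926; 0.0633 without control replicate 1). The list's median was -0.28. Without control replicate 3, 4 of its genes fell and 1 rose, and Robo2 was then at -1.30 (adjusted p = 0.0398).

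Of the 120 called genes, 11 encode secreted signals, agouti, Slit2 and Ntn1 included, and 9 of these were higher, beside 103 of all 120. Angpt1, angiopoietin-1, which stabilises blood vessels through the receptor Tek, was at 2.34, 2.83 and 1.99 CPM in the controls, and at 20.9, 33.4 and 29.2 CPM in knockout-labelled libraries. These values do not approach each other (3.54, SE 0.35, adjusted p = 0.00118; at most 0.0138 on leaving out a library). It was the 1 of 16 angiopoietin and VEGF genes called. Sfrp1, a secreted antagonist of Wnt ligands, was at 88.6, 80.6 and 74.2 CPM in the controls, and at 270, 310 and 207 CPM in knockout-labelled libraries (1.69, SE 0.23, adjusted p = 0.00925; 0.0593 without control replicate 1). It was the 1 of 37 Wnt genes called, and the list's median was 0.11. Without control replicate 3, 2 of 38 tested Wnt genes were called higher. Nrg2, a ligand of ERBB receptors, rose by 2.03 as the 1 of 13 EGF family genes called, beside 2 called higher without control replicate 3. Igf1, the insulin-like growth factor, rose by 3.33 as the 1 of 14 IGF genes called, and without control replicate 3 none of the 14 was called. Bmp5 rose by 3.18 and Id3, a repressor induced by BMP signals, by 1.48, the 2 called of 32 TGF-beta and BMP genes. Mdk, the growth factor midkine, fell by 1.73 on the log2 scale. On leaving out a library the highest adjusted p of these 5 genes lay between 0.136 (Bmp5, control replicate 1) and 0.213 (Id3, control replicate 2). Of the FGF list 0 of 18 genes were called, and of the Notch list, which does not hold Dtx1, 0 of 19. Fgf10, the mesenchymal ligand of epithelial branching, was at 4.89 (SE 1.10, adjusted p = 0.0718), Fgf7 at 1.64 (adjusted p = 0.0742) and Notch1 at 0.83 (adjusted p = 0.108).

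Of the 12 called genes that encode cell surface receptors, 10 rose and 2 fell, beside 103 and 17 of all 120. Sstr1, a somatostatin receptor, was at 3.87, 6.54 and 3.79 CPM in the controls, and at 56.2, 33.2 and 82.6 CPM in knockout-labelled libraries. It rose in each of them (3.59, SE 0.39, adjusted p = 0.00239), and the call held without any single library, with an adjusted p of at most 0.0261. Adcyap1r1, the receptor of the neuropeptide PACAP, rose by 3.70 (SE 0.63, adjusted p = 0.0251; 0.138 without control replicate 1), and 2 of 11 neuropeptide and hormone receptors were called. Gria4 and Gria2 are subunits of AMPA-type glutamate channels, and both rose while the other 5 of 7 tested glutamate receptor genes were not called. Of the 7, 2 were positive, and the median was -0.12. Gria4 was at 1.32, 1.68 and 1.23 CPM in the controls, and at 30.8, 38.3 and 43.0 CPM in knockout-labelled libraries (4.71, SE 0.62, adjusted p = 0.00731; 0.0632 without control replicate 1). Gria2 had 1 count over the controls and 108 over the knockout-labelled libraries, a ratio of 113 with an exact 95% interval of 19.8 to 4480 (adjusted p = 0.0247; 0.136 without control replicate 2). Cntnap4, a neurexin-like adhesion protein, rose from 1.03 ± 0.43 to 15.1 ± 9.15 CPM (SD, n = 3) and was highest, at 25.2 CPM, in knockout-labelled replicate 3 (adjusted p = 0.00731; 0.0614 without control replicate 1). Lpar1, a receptor of lysophosphatidic acid, rose by 2.03 (adjusted p = 0.0283; 0.136 without control replicate 2).

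Of 16 called channels, pumps and carriers, 12 rose and 4 fell, which again is beside 103 and 17 of all 120. Piezo2, a channel opened by mechanical force, was at 5.50, 2.30 and 2.75 CPM in the controls, and at 19.8, 24.7 and 20.9 CPM in knockout-labelled libraries (2.64, SE 0.32, adjusted p = 0.00433), and Ank, an exporter that raises extracellular pyrophosphate, was at 136, 92.4 and 80.7 CPM and at 488, 423 and 524 CPM (2.22, SE 0.28, adjusted p = 0.00557). Both calls held on leaving out any basal library. Tmem229a, a membrane protein, rose from 0.410 ± 0.19 to 14.4 ± 6.73 CPM (5.09, SE 0.59, adjusted p = 0.00329). Among the falls, Cacna1g, a T-type calcium channel, went from 73.9 ± 24.7 to 26.03 ± 7.31 CPM (-1.50, SE 0.29, adjusted p = 0.0398). Ryr3, which releases calcium from internal stores, went from 13.9 ± 5.67 to 1.48 ± 1.22 CPM (-3.20, SE 0.64, adjusted p = 0.0436). Slc38a1, a glutamine carrier, fell by 2.26, and Atp6v1b1, a subunit of the proton pump, by 0.79. Each of these 4 falls was called in 1 of the 6 fits that left out a library, without control replicate 3 for Cacna1g, Ryr3 and Atp6v1b1 and without control replicate 2 for Slc38a1. Their highest adjusted p was 0.173 for Cacna1g and for Ryr3, 0.238 for Atp6v1b1 and 0.182 for Slc38a1.

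Trf, transferrin, the iron carrier of serum and milk, had the highest level per length of the called genes in the knockout-labelled libraries, from 236 to 1548 RPKM. Trf was at 640, 697 and 313 CPM in the controls, and at 3850, 3528 and 3453 CPM in knockout-labelled libraries. The lowest knockout-labelled library lay several times above the highest control (2.71, SE 0.39, adjusted p = 0.0107; 0.0632 without control replicate 1). It was the 1 called of the 15 genes on the list of iron transport and storage. Outside that list, Scara5, a scavenger receptor that takes up ferritin, rose by 2.50 (adjusted p = 0.0154; 0.096 without control replicate 1), and Meltf, melanotransferrin, fell. Nqo1, a quinone reductase that is a common readout of the antioxidant response, was at 13.4, 11.8 and 9.94 CPM in the controls, and at 61.2, 94.7 and 56.6 CPM in knockout-labelled libraries (2.60, SE 0.24, adjusted p = 0.000882; at most 0.0118 on leaving out a library). Enpp6, a choline-releasing phosphodiesterase, had 3 counts over the controls and 158 over the knockout-labelled libraries, a ratio of 54.9 with an exact 95% interval of 18.4 to 269 (adjusted p = 0.00329). Lpl, lipoprotein lipase, which frees fatty acids from circulating fat, rose by 3.46 (SE 0.52, adjusted p = 0.0131; 0.096 without control replicate 1) as the 1 called of the 15 genes on the list of lipid uptake and storage. Car3, a carbonic anhydrase, had 1 count over the controls and 119 over the knockout-labelled libraries (ratio 124, exact 95% interval 21.8 to 4940), with an adjusted p of 0.0409, or 0.213 without control replicate 2.

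The called genes include 7 transcription regulators, all higher, as were 103 of all 120. Foxa1 (Entrez 15375, chromosome 12, 57540628 to 57548029), the forkhead pioneer factor of hormone-sensing luminal cells, was at 8.15, 6.45 and 14.2 CPM in the controls, and at 46.2, 28.9 and 40.2 CPM in knockout-labelled libraries (2.0, SE 0.29, adjusted p = 0.0126; 0.096 without control replicate 1). It was the 1 of 19 forkhead genes outside the Foxp family called, or 1 of 2 without control replicate 3. With Sytl2, a regulator of secretory vesicles at 2.73 (adjusted p = 0.0398; 0.184 without control replicate 2), it made up the 2 of 17 hormone-sensing luminal markers called. The median over those 17 was 0.26, or 0.78 with 3 called without control replicate 3. Pan-luminal markers had a median of 0.42 and 0 of 14 called. The luminal keratin Krt19 was just outside the threshold, at 72.8, 45.1 and 85.6 CPM in controls and 263, 198 and 147 CPM in knockout-labelled libraries (1.58, SE 0.33, adjusted p = 0.0515). The summed pan-luminal level was higher in knockout-labelled replicates 1 and 3 than in any control, and in replicate 2 it was 2460 CPM, within the range of the controls. Without control replicate 3, 2 of 14 were called higher and the median was 0.79. Whether luminal transcripts in the sorted fraction had a part in the call of Foxa1 was not tested. Among the other regulators, Gli1, a Hedgehog effector, rose by 2.19, Osr2 by 2.94, Tbx15 by 2.66 and Hoxd10 by 4.17. Their highest adjusted p on leaving out a library lay between 0.136 and 0.173.

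The called genes include 13 for matrix proteins and their processing enzymes. They rose by 1.30 to 3.60 on the log2 scale, and as 103 of all 120 called genes rose, their direction is near that of the calls as a whole. Adamts1, a secreted protease that cuts versican, was the most abundant per length, from 209 to 951 RPKM. It was at 1214, 1377 and 472 CPM in the controls, and at 5832, 3200 and 4909 CPM in knockout-labelled libraries (2.19, SE 0.40, adjusted p = 0.0347; 0.135 without control replicate 1). Pamr1 was at 16.2, 10.7 and 10.98 CPM and at 75.1, 108 and 66.4 CPM (2.72, SE 0.32, adjusted p = 0.00329), and it alone of the 13 was called without any basal library in turn. Ptx3, a pentraxin, went from 111 ± 39.9 to 633 ± 190 CPM (2.51, adjusted p = 0.0247), Thbs4, thrombospondin-4, from 2.78 ± 1.44 to 33.9 ± 4.54 CPM (3.60, adjusted p = 0.0299) and Aspn, asporin, from 2.36 ± 0.21 to 18.5 ± 7.38 CPM (2.96, adjusted p = 0.0466). Pcolce, which helps to process procollagen, rose by 1.97, and Ccdc80, Podn and Abi3bp by 2.54, 3.17 and 2.06. Apart from Pamr1, the highest adjusted p of the matrix genes on leaving out a library lay between 0.0731 (Pcolce, control replicate 1) and 0.216 (Aspn, control replicate 1). Of the 34 collagens on a fixed list 0 were called (median 0.09, 21 positive). Of these 34, 11 were higher in every knockout-labelled library than in every control and 0 lower, beside 7.82% and 4.47% of all tested genes. Col28a1, a collagen outside that list and 1 of the 13 matrix genes, rose by 2.68 (adjusted p = 0.0347; 0.175 without control replicate 2). None of 28 laminins and integrins was called (median -0.14). Without control replicate 3, 1 gene of each list was lower, with medians of -0.18 and -0.05.

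Of the 18 fibroblast markers 2 were called, both higher. All 18 on the list were detected, none was at 0, and they summed to 2883 to 3774 CPM in controls and to 5323 to 7778 CPM in knockout-labelled libraries. The 2 called were Pdgfra, the receptor of platelet-derived growth factor, at 8.05, 5.48 and 13.3 CPM in controls and 31.7, 57.2 and 51.7 CPM in knockout-labelled libraries (2.39, SE 0.37, adjusted p = 0.015; 0.0983 without control replicate 1), and the surface protease Dpp4 (2.83, SE 0.54, adjusted p = 0.0398; 0.184 without control replicate 2). The median of the 18 was 2.36, 16 were positive, and 15 were higher in every knockout-labelled library than in every control, beside 7.82% of all tested genes. Fap was at 2.48 (adjusted p = 0.0633), while Postn was at 0.03 and Fbln1 at -0.37. Without control replicate 3 the median was 2.55, again with 2 called. Pericyte markers had a median of 0.94, 0 of 8 called and sums of 202 to 482 CPM and 295 to 450 CPM. Endothelial markers had a median of -0.02 (0.43 without control replicate 3), 0 of 14 called and sums of 147 to 288 and 198 to 215 CPM. Of the adipocyte markers 4 of 10 passed the filter, with 0 called and sums over all 10 of 36.3 to 96.5 and 79.8 to 130.5 CPM. The part of fibroblast transcripts in the rises of matrix genes, of Igf1, Lpl, Osr2 and Tbx15, and of the other genes called higher was not tested.

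Of 11 tested Schwann and glial markers, 2 were called, both higher. S100b, a calcium-binding protein of glia, went from 0.190 ± 0.01 to 1.78 ± 1.01 CPM (3.16, adjusted p = 0.0398; 0.207 without control replicate 2). All 11 were positive, and the median was 0.72. Without control replicate 3, 1 of the 11 was called. The 12 markers on that list summed to 484 to 879 CPM in controls and 855 to 984 CPM in knockout-labelled libraries, none was at 0, and their part in the other genes called higher was not tested.

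**Figure D4:**
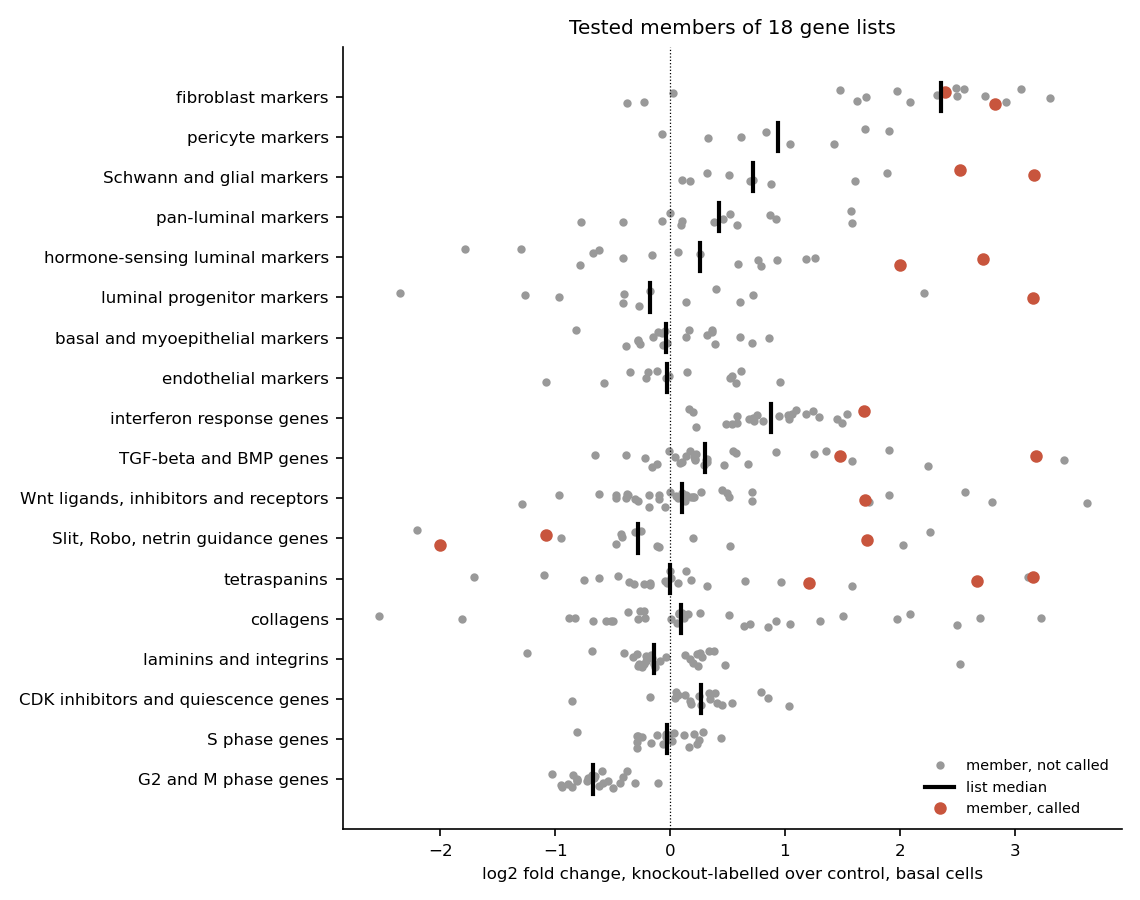
Log2 fold change of knockout-labelled over control basal libraries (horizontal) for every tested member of 18 gene lists, 1 point a gene; red points are called, grey points are not, and black bars are list medians. Fibroblast markers lie farthest to the right with a median of 2.36 and 2 of 18 called, interferon response genes are all positive with 1 of 24 called, and G2 and M phase genes are all negative with 0 of 24 called, although their median turns to 0.07 without control replicate 3.

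Genes of complement and of the interferon response were read next. C2, a protease of complement, was at 2.14, 2.12 and 4.36 CPM in the controls, and at 24.8, 23.2 and 19.0 CPM in knockout-labelled libraries. It rose (2.96, SE 0.36, adjusted p = 0.00502), and the call held without any single library. Clu, clusterin, rose by 1.23 (adjusted p = 0.0167; 0.11 without control replicate 2). Of 24 interferon response genes, Cxcl10, a chemokine for T cells, was called (1.69, SE 0.32, adjusted p = 0.0398; 0.17 without control replicate 1). It was at 16.6, 21.6 and 15.5 CPM in the controls, and at 69.2, 56.9 and 47.0 CPM in knockout-labelled libraries. All 24 were positive, with a median of 0.88, and 13 did not overlap between the groups, all higher, beside 7.82% of all tested genes. The sums over the 24 overlapped, at 424 to 680 CPM in controls and 602 to 1053 CPM in knockout-labelled libraries. Of T and B cell markers 3 of 12 passed the filter and summed, over all 12, to 11.8 to 15 CPM in controls and 3.95 to 5.47 CPM in knockout-labelled libraries, with Cd8a at 0 in all 6. The 12 macrophage and dendritic markers, none at 0, summed to 71.1 to 84.6 CPM in controls and 31.8 to 65.3 CPM in knockout-labelled libraries, and the 4 tested had a median of -0.33, or 0.20 without control replicate 3. Their part in the interferon genes was not tested.

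The falls outside the guidance genes and channels were few. Kif1a, a kinesin that carries vesicles along microtubules, was at 74.7, 66.8 and 93.0 CPM in the controls, and at 15.9, 11.7 and 23.7 CPM in knockout-labelled libraries (-2.20, SE 0.32, adjusted p = 0.011; 0.0593 without control replicate 1). Of 31 kinesins it alone was called. Sorcs1, a sorting receptor of the sortilin family, was at 41.3, 40.4 and 15.4 CPM and at 2.24, 7.03 and 3.42 CPM (-2.92, SE 0.51, adjusted p = 0.0299). Piwil2, of the germline Piwi family, fell by 1.82, Dtx1, a Deltex protein of the Notch pathway, by 2.04, Meltf, melanotransferrin, by 2.57, Tmem215 by 3.99 and Gpalpp1 by 1.02. Bves, a membrane protein of muscle and epithelial junctions, had 91 counts over the controls and 3 over the knockout-labelled libraries, which is 29.1-fold lower with an exact 95% interval of 9.65 to 144 (adjusted p = 0.0393). Apart from Kif1a, the highest adjusted p of these genes on leaving out a library lay between 0.136 (Sorcs1, control replicate 2) and 0.227 (Piwil2, control replicate 2).

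The lower genes included 1 transcript of milk and 1 of salivary gland. Csn1s1, a casein, was at 2.04, 1.86 and 1.70 CPM in the controls, and at 0, 0.267 and 0.214 CPM in knockout-labelled libraries (-3.42, SE 0.56, adjusted p = 0.0227; 0.096 without control replicate 1), the 1 of 7 tested milk genes called. The list as a whole did not fall: 5 of the 7 were positive, and the median was 0.43, or 0.26 without control replicate 3. The 12 milk genes on the list summed to 96.3 to 202 CPM in controls and 182 to 428 CPM in knockout-labelled libraries. Smr3a, a secreted protein of the submandibular gland, was at 158, 307 and 855 CPM in the controls, and at 12.4, 4.18 and 5.34 CPM in knockout-labelled libraries (-5.91, SE 1.04, adjusted p = 0.0304; 0.119 without knockout-labelled replicate 2). The controls differed several-fold among themselves. Of 9 tested salivary transcripts it alone was called. Of these 9, 4 were lower in every knockout-labelled library than in every control and 0 higher, beside 4.47% and 7.82% of all tested genes. The fold changes of 5 of the 9 were positive, and the median was 0.04. The 14 on that list summed to 993 to 4300 CPM in controls and to 197 to 4659 CPM in knockout-labelled libraries, with 4659 CPM in replicate 2, so the sums of the groups overlapped. The part of salivary RNA in the fall of Smr3a was not tested.

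Genes of basal identity did not pass the test. None of the 20 basal and myoepithelial markers was called, and their median was -0.04. The basal keratins Krt14 and Krt5 were at 0.36 (SE 0.64, adjusted p = 0.983) and -0.28 (SE 1.0, adjusted p = 0.991), the basal transcription factor Trp63 at 0.14 (SE 0.54) and Acta2 at -0.39 (SE 0.47). Egfr had the lowest p among them, at 0.61 (SE 0.17, adjusted p = 0.141). With these standard errors, changes near 2-fold in either keratin, and larger ones in Krt5, cannot be told from no change. Of 34 mammary lineage transcription factors 0 were called, or 1 without control replicate 3, and Tbx3, with the lowest p, was at 0.93 (adjusted p = 0.085).

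Cell cycle genes gave no call. All 24 genes of G2 and M phase were negative with a median of -0.67, but none of them separated the groups, and the median was 0.07 without control replicate 3. Mki67 was at 54.6, 43.5 and 171 CPM in the controls, and at 64.4, 78.2 and 20.4 CPM in knockout-labelled libraries (-0.72, SE 0.75, adjusted p = 0.961). The 22 S phase genes had a median of -0.03. Of 19 CDK inhibitors and quiescence genes 0 were called, with a median of 0.27, or 0.16 without control replicate 3. Cdkn1a, Cdkn1b and Cdkn1c, which encode the inhibitors of the CIP/KIP family, were at 0.54 (SE 0.37), 0.25 (SE 0.15) and 0.34 (SE 0.26).

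The same genes were then read in the luminal libraries. Their columns share replicate letters with the basal ones, and whether the same mice gave both was not established. Shared calls are therefore not taken as independent support. Among the 13971 genes, 332 (2.38%) were called between the luminal groups. Of the 120 basal genes, 24 were called in both cell types, 20% of the basal list and 7.23% of the luminal one. In 19 of them the direction was the same, as for agouti, Fmn2, Enpp6, Gria4, Cntnap4, C2, Nqo1, Ank, Cxcl10, Kif1a, Mdk, Csn1s1 and Smr3a. Over all 120 genes, 86 had the same sign in luminal cells. The share with the same sign over all tested genes was not computed, so this count has no background beside it. The direction was opposite for 5 called in both, Angpt1, Ntn1, Lpar1, Ryr3 and Robo1.

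The difference between the basal and the luminal fold was tested in the same fit, and 31 of 13971 genes were called different (0.222%), 12 of them among the 120. In Angpt1 the basal rise stood beside a luminal fall from 12.5 to 3.71 CPM, a difference of 5.29 (SE 0.48, adjusted p = 0.00125). In Ntn1 it stood beside a luminal fall from 176 to 84.3 CPM (difference 2.77, SE 0.33, adjusted p = 0.00457). In Ryr3 the basal fall stood beside a luminal rise from 0.342 to 13.0 CPM (difference -8.39, SE 0.98, adjusted p = 0.00457). These 3 differences and that of Pamr1 (3.59, SE 0.45, adjusted p = 0.00719) were called on leaving out any basal library. Robo1 fell in basal cells and rose from 22.1 to 43.4 CPM in luminal cells (difference -2.05, SE 0.31, adjusted p = 0.0271; 0.0841 without basal control replicate 1). Slit2 was scarce in luminal cells, at 1.98 and 1.95 CPM (difference -1.98, SE 0.30, adjusted p = 0.0269; 0.0754 without basal control replicate 2). The difference for Tspan8 was 2.46 (SE 0.49, adjusted p = 0.0662), so its basal rise is not shown to differ from the luminal fold of 0.22.

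**Figure D5:**
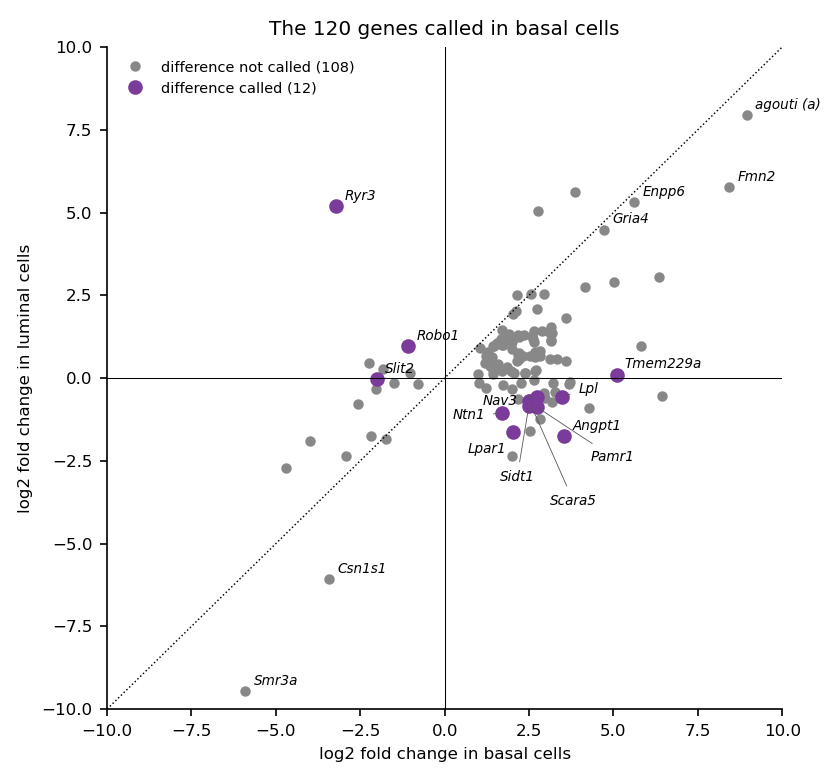
Log2 fold change of knockout-labelled over control libraries in luminal cells (vertical) against that in basal cells (horizontal) for the 120 genes called in basal cells, with the line of equal folds dotted. Purple points mark the 12 genes whose basal and luminal folds were called different; agouti, Fmn2, Enpp6 and Gria4 lie in the upper right with rises in both, and Angpt1, Ntn1, Lpar1, Ryr3 and Robo1 have opposite signs. Fitted folds of genes with few counts depend on the prior count.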

How the data were processed

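Per the labels' protocols, RNA was taken with a Qiagen RNeasy kit and sequenced from TruSeq RNA v2 libraries on an Illumina HiSeq 2000. Per the submitters' processing notes, CASAVA 1.8.2, featureCounts and the mm10 build were used. As to aligner, annotation and strand, each is not given in the sources used here, and reads of overlapping or antisense genes cannot be told apart. The deposited tables hold raw read counts for each gene with no normalization by the authors, and the separate tables of the 12 libraries differed from the series table in 0 values.

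Genes were filtered with filterByExpr on the 6 basal libraries and tested in R 4.3.3 with edgeR 4.0.16, using its robust quasi-likelihood F test and TMM factors. The model had 4 group means over all 12 libraries, which left 8 residual degrees of freedom, and the common biological coefficient of variation was 31.2%. Every adjusted p is a Benjamini-Hochberg value over 13971 genes. CPM use the TMM factors, RPKM also the deposited gene lengths, and ± is the SD over 3 libraries. The SE is the size of a gene's log2 fold change over the root of its F value. A group with 3 or fewer counts gives a ratio of counts with an exact 95% interval, for counting error only. In simulated basal data of 13759 genes, 78 of the 100 genes given a 4-fold change were recovered, and 17 of the 100 given 2-fold, beside 1 wrong call. The changed genes were drawn only from those above a minimum mean count, so recovery of scarcer genes is not covered. The simulated data held no library that stands apart as control replicate 3 does, so these rates may not carry over. Alternatives used limma 3.58.1 and DESeq2 1.42.0. Positions and promoter windows are from RefSeq (GRCm38.p6).

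The genes compared, the 49 gene lists and the roles of genes were chosen with earlier results of these data known, and no list was tested as a set. Of the 120 called genes 86 were given a role after their values were seen. The rule for named genes took Foxp1 first and allowed any called gene with a proper symbol. Values in every library were for up to 16 rises and 10 falls that had the lowest p at an average log2 CPM of 1 or more, and for the largest folds. Each list gave up to 4 called members, or its best 2 by p if none was called, and up to 6 genes just outside the threshold could be added. A fixed set was always given: Foxp1, Foxp2, Foxp4, Tspan8, Lgr5, Krt5, Krt14, Acta2, Trp63, Mki67, Cdkn1a, Cdkn1b and Cdkn1c. Robo2, Fap, Postn, Fbln1, Mgrn1, Atrnl1 and Atrn fall outside that rule and were chosen after their values were seen. The chi-square per degree of freedom between replicates of a basal group was 11.8 to 98.8, so no libraries were merged. Some results are not reported here.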

Additional observations from a re-analysis of the deposited data

Results flagged for a closer look

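For 12 of the 120 genes called in basal cells, the basal log2 fold change differed from the luminal one by a test of the difference itself (edgeR adjusted p under 0.05, as for 0.222% of all tested genes). The basal minus luminal difference was 5.29 for Angpt1, 3.59 for Pamr1, 2.77 for Ntn1 and -8.39 for Ryr3, and these 4 were called in all 6 fits that left out a basal library. Lpar1, the receptor of lysophosphatidic acid, differed by 3.66 and was called in 4 of the 6 fits (adjusted p = 0.0658 without basal control replicate 1 and 0.0631 without control replicate 2). Tmem229a differed by 4.99, Lpl by 4.03, Sidt1 by 3.35 and Scara5, a scavenger receptor that takes up ferritin, by 3.19, each called in 2 of the 6. Nav3 differed by 3.29, Robo1 by -2.05 and Slit2 by -1.98, each called in 1 of the 6, which was without control replicate 3. The highest adjusted p over those fits was 0.123 for Lpl, 0.12 for Nav3, 0.102 for Scara5, 0.0922 for Sidt1, 0.0841 for Robo1 and 0.0808 for Tmem229a, all without basal control replicate 1, and 0.0754 for Slit2 without control replicate 2.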

How the results depend on the processing

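No call turned its direction under the 17 settings, and 8 of the 120 genes were called in all of them. Scaling by DESeq2 size factors, by library size alone or by upper quartile gave 120, 92 and 106 calls, of which 118, 89 and 103 were among the 120, and moved the median of all genes by at most 0.07. Without a filter beyond 1 count, 109 genes were called, 11 of them lower, and 50 differences were called. Without salivary and milk transcripts 119 were called, 10 of them lower. DESeq2 called 411, 347 higher and 64 lower, with all 120 among them and 93 genes of the lists, beside 34 in edgeR. The 6 basal libraries alone gave 151 (81 shared) and limma-voom 152 (97 shared). Over the fits without 1 basal library the count was 17 to 152, with 16 to 110 higher, 1 to 42 lower, 5 to 40 list genes, 11 to 79 differences and 16 to 26 genes called the same way in luminal cells. The cause of these shifts was not tested. Deviations from the group mean correlated at -0.03, 0.36 and 0.18 between control and knockout-labelled libraries of the same number, and not every library correlated best with its own number, so the numbers were not taken to pair the libraries. With the replicate number as a block over 12 libraries, 268 genes were called (221 higher, 47 lower, 116 shared), with 63 list genes, 97 differences and 30 genes called the same way in luminal cells. With the block over the 6 basal libraries, 16 were called (13 higher, 3 lower, 14 shared), with 8 list genes. With 3 libraries a group most changes near 2-fold would be missed.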

Other observations

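The 120 called genes were spread over 20 chromosomes. The share of tested genes called was highest on chromosome 16, with 8 higher and 2 lower of 433 (2.31%), and lowest on chromosome 7, with 2 higher of 1042 (0.192%), beside 0.859% of all tested genes. The 10 on chromosome 16 include Robo1, Adamts1, Apod, Meltf and Atp13a5. No test of clustering was run.

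Just outside the threshold, 96 genes had an adjusted p between 0.05 and 0.10, 79 of them higher and 17 lower. Beside Krt19, those with the lowest p were Mxra8 at a log2 fold change of 1.48, Cdk5r1, an activator of the neuronal kinase CDK5, at -1.37, Atp1b1, a sodium pump subunit, at 1.20, Plxnd1, a semaphorin receptor, at 0.82 and Cd59a, an inhibitor of complement, at 1.39. Without adjustment, 1225 genes had p under 0.05.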
